A study of Mus musculus with 9 samples.

Results

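The genes described here are the MYC proto-oncogene family members Myc and Mycn, their obligate partner Max, the MAX-binding antagonists Mxd1, Mxd3, Mxd4, Mxi1, Mnt and Mga, and the related partner Mlx. MYC and MAX form a dimer of basic helix-loop-helix leucine zipper proteins that binds the E-box CACGTG and raises transcription, including that of ribosomal RNA genes. MXD proteins, MXI1 and MNT take MYC's place on MAX and recruit SIN3 and histone deacetylases, MGA represses with MAX through other complexes, and MLX pairs with some of the same antagonists and with glucose-sensing factors. UBTF is the architectural protein of active ribosomal RNA gene repeats, and outside them it has been found at many promoters of genes read by RNA polymerase II.

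All 10 genes were taken by name from the 22380 protein-coding genes of the mm9 annotation GENCODE M1, by their place in the MYC network. UBTF chromatin immunoprecipitation sequencing (ChIP-seq) peak lists were used from 6 libraries, 2 for each stage. All mice were C57BL/6. Wild type mice, littermates without the transgene, and premalignant Eµ-Myc mice were 4 to 6 weeks old, and malignant cells came from Eµ-Myc mice with spontaneous lymphoma at 10 to 20 weeks. In Eµ-Myc mice the immunoglobulin heavy chain enhancer drives Myc in the B lineage, so both transgenic stages carry Myc sequence at a locus of its own beside the endogenous gene, and reads from both cannot be told apart after mapping. Cells were sorted by surface markers of bone marrow pre-B cells, which UBTF peak lists cannot check, since they hold no expression values. The 3 input samples had no peak list here and were not analysed.

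The lists differed in length and in the shape of their peaks. They held from 78113 (premalignant replicate 1) to 575674 peaks (premalignant replicate 2), and the narrowest peak measured 240 to 260 bp in both wild type lists and premalignant replicate 1 but 670 to 800 bp in premalignant replicate 2 and both malignant lists. For wild type against malignant cells this width cannot be told apart from the stage. Peak scores are not scaled between libraries, so each peak was given its rank percentile, the percent of peaks of the same list with a lower score, and a gene's value is that of its best peak, or 0 without a peak. Sequencing depth is unknown from such lists, and a value of 0 says only that no peak was called.

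Upstream sequence is shown first for 3 antagonist genes that had best summits within 250 bp before their first start. Mnt, the most widely expressed MAX-binding repressor, starts at chr11:74644422 on the plus strand, and the 250 bases before it (chr11:74644172-74644421, mm9) hold the best UBTF summit of 3 libraries, from 57 to 21 bp before the start. Mxd3, an antagonist found in dividing cells, lies on the minus strand with its first start at chr13:55431119, and its 250 upstream bases (chr13:55431120-55431369, minus strand) hold the best summit of 3 libraries, from 154 to 86 bp before it. Mxd4 also lies on the minus strand (upstream bases chr5:34530370-34530619), and the best summits of wild type replicate 2 and malignant replicate 1 fell 23 and 5 bp before its first start. Each sequence runs 5′ to 3′ on the gene's strand up to the last base before the first start, with CACGTG in capitals.
Mnt: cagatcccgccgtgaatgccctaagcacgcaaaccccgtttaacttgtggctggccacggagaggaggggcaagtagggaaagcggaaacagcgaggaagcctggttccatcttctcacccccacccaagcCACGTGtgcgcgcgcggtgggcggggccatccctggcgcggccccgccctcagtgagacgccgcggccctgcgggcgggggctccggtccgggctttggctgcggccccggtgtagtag
Mxd3: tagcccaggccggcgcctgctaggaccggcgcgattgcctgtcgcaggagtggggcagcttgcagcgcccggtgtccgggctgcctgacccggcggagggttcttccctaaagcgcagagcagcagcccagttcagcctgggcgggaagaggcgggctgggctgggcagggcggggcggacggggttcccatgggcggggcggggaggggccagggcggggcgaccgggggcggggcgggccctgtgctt
Mxd4: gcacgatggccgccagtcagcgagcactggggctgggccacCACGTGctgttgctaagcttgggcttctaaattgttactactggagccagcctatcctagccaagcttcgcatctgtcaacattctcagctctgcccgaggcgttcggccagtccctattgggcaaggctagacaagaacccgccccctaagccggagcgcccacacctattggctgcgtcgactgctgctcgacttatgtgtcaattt
CACGTG, which reads the same on both strands, occurred once for Mnt, with its first base 119 bp before the start, and once for Mxd4, 209 bp before it. It was absent from the Mxd3 window. Of all 22380 protein-coding genes, 6.51% held CACGTG in the 250 bases before their first start. The Mnt and Mxd3 windows were rich in G and C (69.2% and 76.0%), and that of Mxd4 less so (58.0%).

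The first question was how many of these genes carried UBTF at a start at all. A start was any annotated transcript start, with a window of 1 kb on each side. In wild type cells 5 of 10 genes had a summit there in replicate 1, beside 36.5% of all protein-coding genes, and 8 in replicate 2, beside 45.5%. Premalignant replicate 1 had 4, beside 22.3%, and replicate 2 had 6, beside 33.7%. Malignant replicate 1 had all 10, beside 47.5%, and replicate 2 had 6, beside 41.1%. The share was above that of all genes in each of the 6 whole lists. It was not compared with all genes in lists shortened to 1 length. The 2 libraries of 1 stage differed by 2 to 4 genes and the ranges of the 3 stages overlapped.

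**Figure D1:**
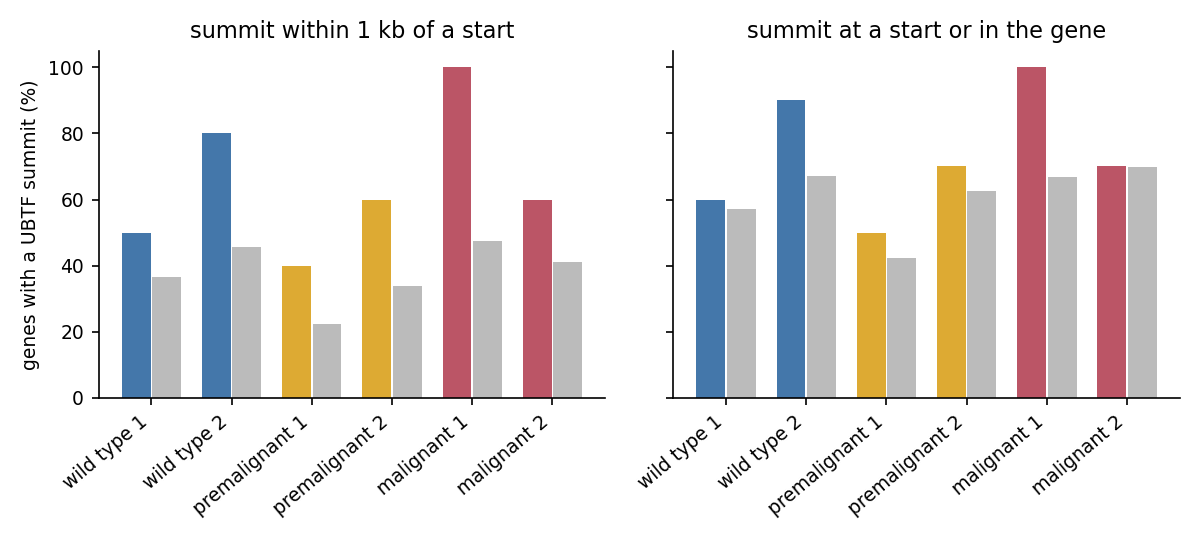
Percent of genes with a UBTF summit in each of the 6 libraries, within 1 kb of a start (left) and at a start or in the gene (right). Coloured bars are the 10 MYC network genes and grey bars all 22380 protein-coding genes; at starts the coloured bar is taller in each library, and over starts and bodies malignant replicate 2 has 70.0% against 69.7%.

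With gene bodies included the difference from all genes was smaller. A summit at a start or in the body was found for 6 and 9 of the genes in wild type (57.2% and 67% of all genes), 5 and 7 in premalignant cells (42.4% and 62.6%), and 10 and 7 in malignant cells (66.9% and 69.7%). The median of the 10 best percentiles was 69.6 and 70.0 in wild type replicates 1 and 2, 11.0 and 52.2 in premalignant replicates 1 and 2, and 72.1 and 68.5 in malignant replicates 1 and 2. Over all protein-coding genes the same medians were 26.0 and 48.6, 0 and 43.0, and 46.5 and 59.0, so both sets were lowest in premalignant replicate 1, the shortest list. The mean of the stage medians was 38.2 points lower in premalignant than in wild type cells, and malignant cells lay 0.45 points above wild type. That last difference was -38.0 with lists of 1 length and -2.90 with an FDR of at most 0.001. The medians of the 2 premalignant libraries differed from each other by more than the stages did in whole lists.

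In whole lists the genes fell into a group with UBTF in nearly every list and a group with little. Counting lists with a summit at a start, Mnt and Mxi1 were in 6, Myc, Mxd1, Mxd3 and Mxd4 in 5, Mycn, Max and Mga in 2, and Mlx in 1. Of all protein-coding genes 19.9% had a summit at a start in 5 or 6 lists, and 30.6% in none. By the mean percentile over the 6 libraries the order was Mnt (76.0 ± 9.88, SD, n = 6), Mxi1 (75.7 ± 19.1), Myc (71.9 ± 37.7), Mxd3 (58.1 ± 31.6), Mxd4 (50.1 ± 34.6), Mxd1 (42.7 ± 28.4), Mycn (12.1 ± 27.3), Mga (9.80 ± 15.2), Max (9.42 ± 16.2) and Mlx (4.18 ± 10.2). Between neighbours in this order, only the step from Mxd1 to Mycn (30.6 points) was larger than the pooled SD of the pair (27.9). Max and Mlx, the shared partners, stood at the low end. The first group depended on the length of the lists, as seen when each was shortened to its 78113 best peaks. Mxd1 then had a start peak only in wild type replicate 2 (31.9), and Mxd4 only in premalignant replicate 1 (22.0) and malignant replicate 1 (15.9). Mxd3 kept one only in wild type replicates 1 and 2 (63.3 and 30.2) and malignant replicate 1 (70.0). Myc and Mnt lost theirs in malignant replicate 2, and only Mxi1 kept one in all 6 lists.

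**Figure D2:**
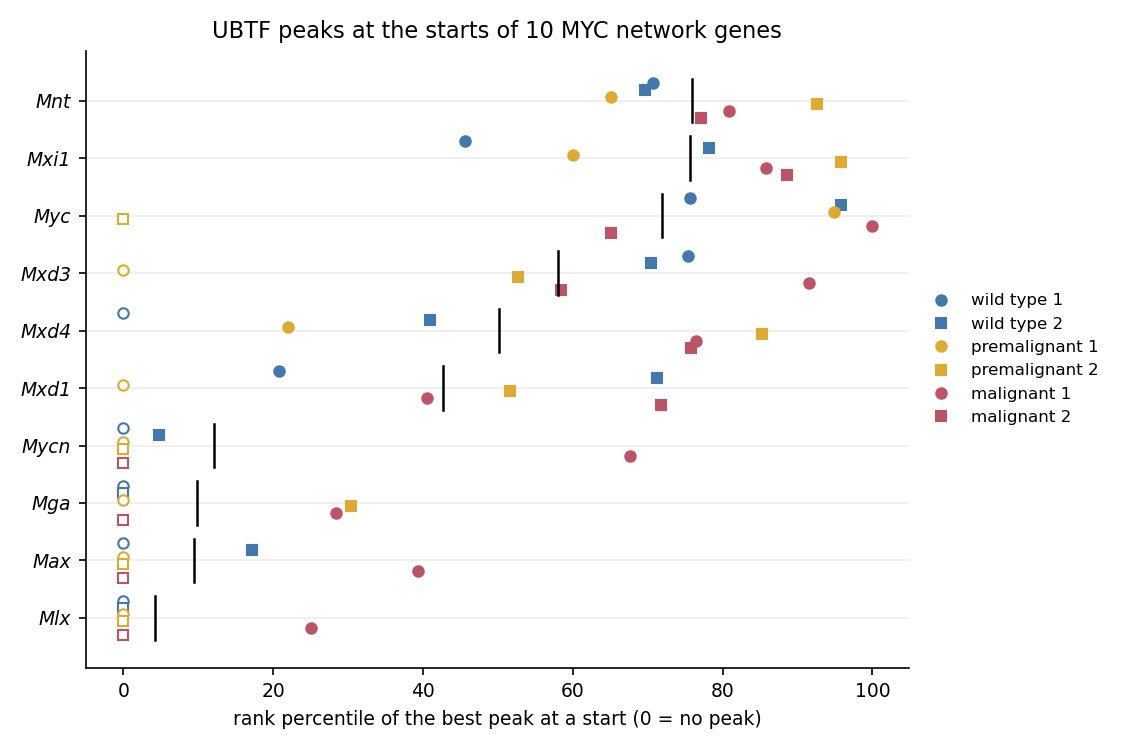
Rank percentile (0 to 100) of the best UBTF peak within 1 kb of a start, for each gene and library; colours mark the stage, circles replicate 1, squares replicate 2, open symbols at 0 no peak, and black bars the mean of 6 libraries. Mnt and Mxi1 have a peak in all 6 libraries, and Mlx in malignant replicate 1 only.

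Myc (chr15:61816946-61821929, plus strand, 5 annotated starts) is the gene that the transgene carries. Its best peak at a start stood at the 75.6 and 95.7 percentile in wild type replicates 1 and 2. In premalignant replicate 1 it stood at 94.8, and premalignant replicate 2 had no peak. In malignant replicate 1 it stood at 99.9, rank 341 of 279068 peaks, and in malignant replicate 2 at 65.1. The highest and the lowest value with a peak thus both came from malignant cells, and the 3 stages overlapped. Only 16 protein-coding genes had a higher peak at a start than Myc in malignant replicate 1, against 5163 in malignant replicate 2.

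No difference between stages exceeded the spread between libraries. Stage means were 85.7 ± 14.2 (SD, n = 2) for wild type, 47.4 ± 67.1 for premalignant and 82.5 ± 24.6 for malignant cells. Premalignant cells were 38.3 points lower than wild type (two-sided exact permutation test, p = 0.667, adjusted p = 1 over 3 comparisons), malignant cells 35.1 points higher than premalignant (exact p = 0.667, adjusted p = 1), and malignant cells 3.19 points lower than wild type (exact p = 1). With 2 libraries against 2 this test cannot give a p below 0.333. Premalignant replicate 2 set the first 2 directions: without it premalignant cells were 9.13 points above wild type, and malignant cells 12.3 points below premalignant. Without wild type replicate 2 or malignant replicate 2, malignant cells were 6.86 and 14.2 points above wild type.

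Within Myc, UBTF summits of different libraries fell at the same few places. The site shared most widely lay 1570 to 1980 bp after the first start, between the 5′ exon and the coding exons. All lists but premalignant replicate 2 had it, at percentiles of 75.6 and 34.7 in wild type replicates 1 and 2, 94.8 in premalignant replicate 1, and 99.9 and 65.1 in malignant replicates 1 and 2. The highest summit of each list at this site lay within 74 bp of an annotated start, which was a different start in malignant replicate 2. Further summits of wild type replicate 2 and malignant replicate 1 lay less near. Summits lay in untranslated exon of some transcripts and intron of others in replicate 1 of every stage. In wild type replicate 2 and malignant replicate 2 they lay in an intron. The best Myc summit of wild type replicate 2 lay elsewhere, 1075 bp after the first start in the intron. A second site, 2612 to 3056 bp after the start, was in 4 lists, with 43.1 in wild type replicate 1, 69.4 in premalignant replicate 1, and 97.5 and 14.5 in malignant replicates 1 and 2. Its summits lay in the coding sequence, except that of malignant replicate 2, which lay in an intron.

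The 5′ end itself carried UBTF in fewer libraries. A site 13 to 379 bp after the first start had percentiles of 40.6 in wild type replicate 2, 92.0 in premalignant replicate 1 and 99.5 in malignant replicate 1. One 868 to 724 bp before it was in the same 3 libraries, at 8.29, 83.0 and 96.0. No summit was called at either in wild type replicate 1 or in replicate 2 of both transgenic stages, so each stage had 1 library with and 1 without. In malignant replicate 2 the best summit had a CA repeat of 46 bp within 100 bp. In no other library did the best Myc summit have a tandem repeat of at least 40 bp that near. None of the best Myc summits had CACGTG within 100 bp.

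**Figure D3:**
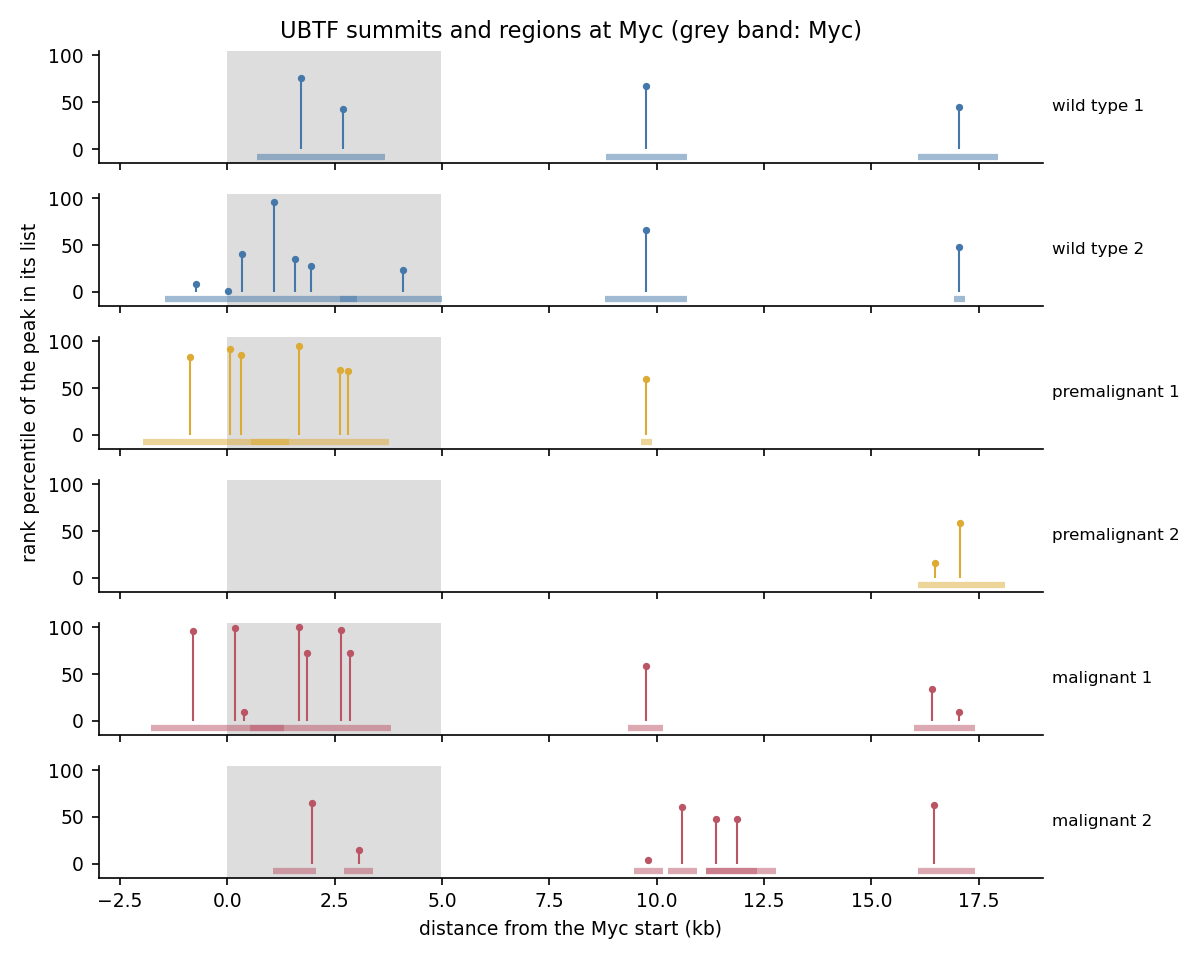
UBTF summits (stems, height the rank percentile) and called regions (bars under the axis) by distance from the first Myc start in kb, 1 row per library, with Myc as a grey band. Premalignant replicate 2 is empty across Myc, while premalignant replicate 1 and malignant replicate 1 have 6 and 7 summits at or in the gene.

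Premalignant replicate 2, the longest list, had no summit between those 11880 bp before and 16485 bp after the Myc start. Outside the gene, the site in most lists lay 9744 to 9809 bp after the Myc start, at 67.4 and 66.7 in wild type, 60.3 in premalignant replicate 1, and 58.6 and 3.5 in malignant replicates 1 and 2. Further down, 17042 to 17066 bp after the start, a site was in 4 lists, at 44.7 and 47.6 in wild type, 59.2 in premalignant replicate 2 and 9.7 in malignant replicate 1. Upstream, 70658 to 70183 bp before the start, a site was in 4 lists, with 13.0 in wild type replicate 2, 73.5 in premalignant replicate 2, and 94.1 and 90.2 in malignant replicates 1 and 2. Of the 64 sites in Myc and 100 kb on each side, 40 were in 1 list, 15 in at least 3 and 5 in at least 4.

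As the transgene may add copies of Myc sequence, summits were counted over Myc and 100 kb on each side, 204984 bp in all, and divided by the density of the same list outside rDNA. The only other annotated gene there was Pvt1, a long intergenic noncoding RNA that starts 52596 bp after the Myc start. The window held 7 and 15 summits in wild type replicates 1 and 2, 8 and 31 in premalignant replicates 1 and 2, and 23 and 37 in malignant replicates 1 and 2. Relative to the list this was 0.781 and 1.05 times in wild type, 1.33 and 0.698 times in premalignant cells, and 1.07 and 0.851 times in malignant cells. The 3 longest lists had the 3 highest counts, and the ratios of the stages overlapped.

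Stage differences in this ratio were small beside the spread between libraries. Premalignant cells were 0.0956 above wild type (exact permutation p = 1), malignant cells 0.0531 below premalignant (exact p = 1), and malignant cells 0.0425 above wild type (exact p = 0.667), with an adjusted p of 1 over the 3 comparisons each time. Between 29.6% (premalignant replicate 1) and 70.8% (wild type replicate 1) of windows of equal length across the genome held at least as many summits. Outside Myc and 1 kb around it, the ratio was 0.577 and 0.581 in wild type, 0.343 and 0.722 in premalignant cells, and 0.769 and 0.833 in malignant cells. There both malignant values were above all 4 others, the difference from premalignant cells was 0.268 (exact p = 0.333, the smallest possible), and the 3 highest ratios were those of the 3 lists with wide narrowest peaks, whose part in the difference was not tested.

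**Figure D4:**
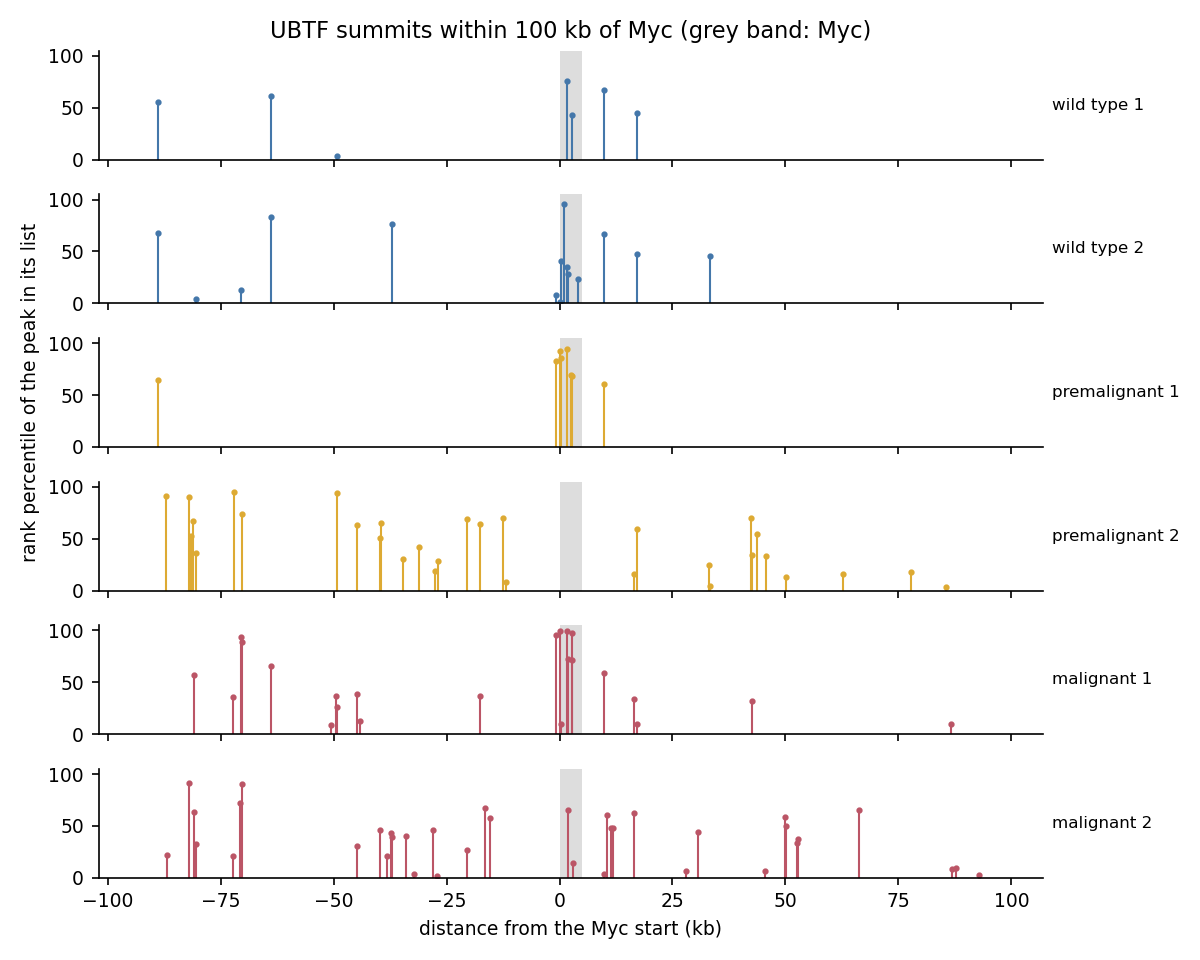
UBTF summits in Myc and 100 kb on each side, by distance from the first Myc start in kb, with stem height the rank percentile of the peak in its list and 1 row per library; the grey band is Myc. From 7 to 37 summits are seen per library, and the tallest in malignant replicate 1 lie in Myc.

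Mycn, the paralog active in early development and in neural tumours, had a summit 196 bp before its start at the 4.72 percentile in wild type replicate 2 and one at 67.7 in malignant replicate 1, and none in the other 4 lists. Max, without which MYC does not bind DNA, had its best start summit in an intron at 17.1 in wild type replicate 2 and at 39.4 in malignant replicate 1. Its body had the best summit of wild type replicate 2, 2280 bp after the first start (63.8), and 2 low summits (5.8) in premalignant replicate 2. Mlx had 1 summit in all, 46 bp after its first start in malignant replicate 1, at 25.1. For these 3 genes no stage had a summit at a start in both libraries.

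Mnt had a peak at a start in every library. Its values were 70.8 and 69.6 in wild type replicates 1 and 2, 65.1 and 92.6 in premalignant replicates 1 and 2, and 80.8 and 77.1 in malignant replicates 1 and 2. The site around the start, between chr11:74644193 and chr11:74644730, was in all 6 lists, and the best peak lay elsewhere only in premalignant replicate 1, in an intron 6938 bp after the first start and near another annotated start. Malignant cells (78.9 ± 2.68, SD, n = 2 here and for the genes that follow) were 8.77 points above wild type (70.2 ± 0.808). These stages did not overlap in whole lists (exact permutation p = 0.333). With lists shortened to equal length they overlapped and the direction turned. Wild type replicates 1 and 2 then had 56.5 and 28.2, malignant replicate 1 had 31.6, and malignant replicate 2 had no peak. The CACGTG printed in capitals lay within 100 bp of the best summit in wild type replicates 1 and 2 and premalignant replicate 2.

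Mxi1 (chr19:53384996-53450300, plus strand) had the largest number of recurrent sites, 5 of its 17 being in at least 4 lists. At a start it stood at 45.6 and 78.2 in wild type replicates 1 and 2, 60.1 and 95.8 in premalignant replicates 1 and 2, and 85.8 and 88.6 in malignant replicates 1 and 2. In whole lists malignant cells (87.2 ± 1.97) were 25.3 points above wild type (61.9 ± 23.1) without overlap (exact permutation p = 0.333). With lists shortened to equal length these stages overlapped. Wild type replicates 1 and 2 then had 19.1 and 48.5, and malignant replicates 1 and 2 had 49.4 and 17.9. The stages also overlapped in whole lists for summits near the first start alone. There wild type replicates 1 and 2 had 45.6 and 69.1, and malignant replicates 1 and 2 had 15.6 and 55.7. The first start was marked in all 6 lists by a site 119 to 370 bp after it. The summit lay in untranslated exon in replicate 1 of every stage, but in the coding exon in replicate 2. An internal start was marked in all 6 lists by a site 19027 bp along the gene. The percentiles of this internal site ran from 34.6 in wild type replicate 1 to 88.6 in malignant replicate 2.

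In 5 of the 6 lists the highest peak of Mxi1 lay in an intron, and in 3 of these within 100 bp of a tandem repeat of at least 40 bp. A site 38729 bp after the first start (chr19:53423286-53423986) was in all 6 lists, at 81.3 and 93.4 in wild type replicates 1 and 2, 89.6 and 99.5 in premalignant replicates 1 and 2, and 58.8 and 96.2 in malignant replicates 1 and 2. With gene bodies included, Mxi1 had the highest mean of the 10 genes (92.4 ± 5.02, SD, n = 6), and its step above Mnt (16.4 points) was larger than their pooled SD (7.83).

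**Figure D5:**
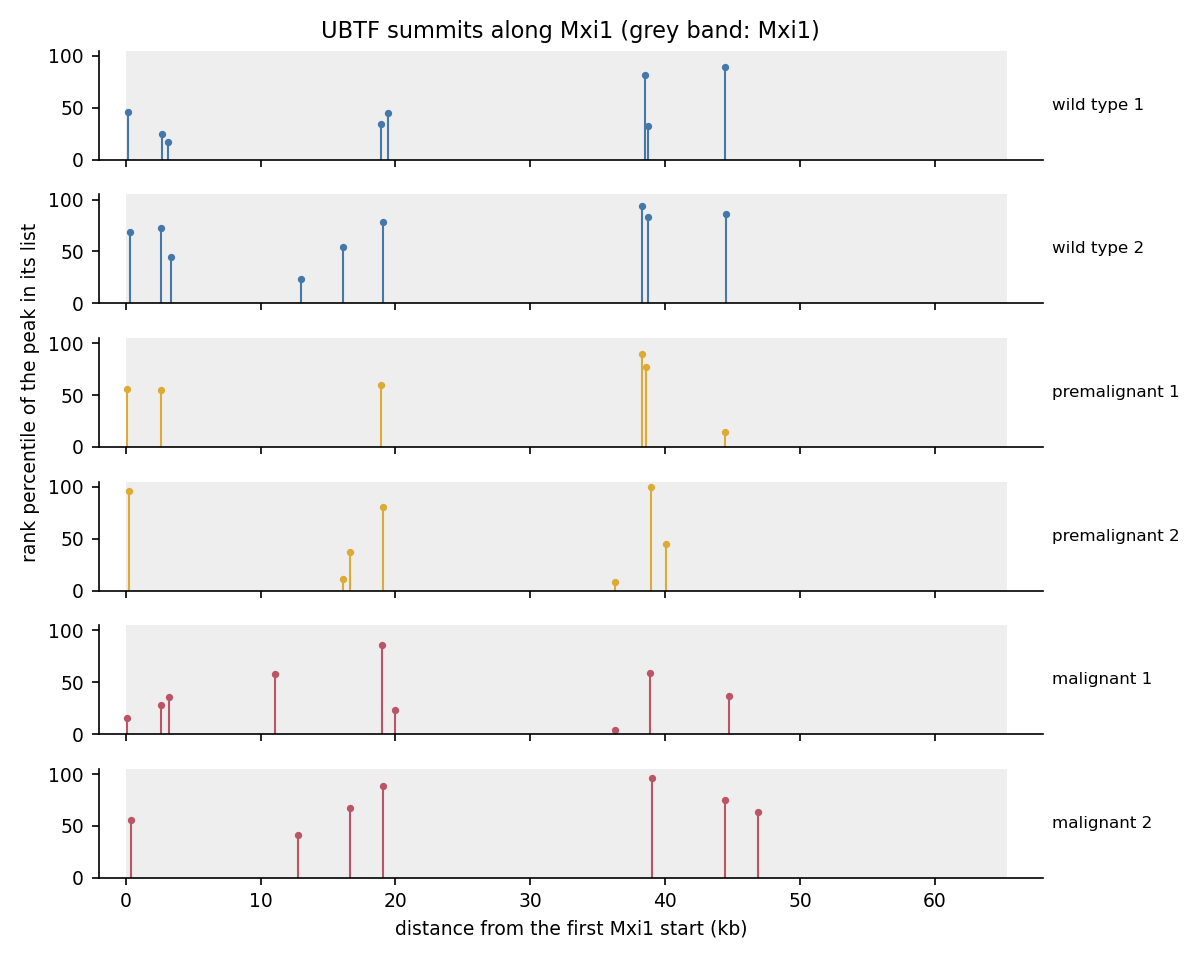
UBTF summits along Mxi1 by distance from its first start in kb, with stem height the rank percentile of the peak in its list and 1 row per library; the grey band is the gene. Stems recur at the first start, at the internal start, and in the intron site found in all 6 libraries.

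An intron site each of Mxd1 and Mxi1 is shown because summits recurred there between libraries. At the Mxd1 site all 5 summits lay on the repeat, while at the wider Mxi1 site only the best summits of wild type replicate 2 and premalignant replicate 1 lay on the printed GT run. Each line gives 121 bases centred on a summit, on the strand of the gene, with the longest run of 1 repeated unit in capitals. The Mxd1 line is chr6:86602706-86602826 (minus strand, summit of wild type replicate 1) and the Mxi1 line chr19:53423231-53423351 (plus strand, summit of wild type replicate 2). No exon overlapped either.
Mxd1 intron: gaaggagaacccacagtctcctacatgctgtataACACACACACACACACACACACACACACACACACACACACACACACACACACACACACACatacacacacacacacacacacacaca
Mxi1 intron: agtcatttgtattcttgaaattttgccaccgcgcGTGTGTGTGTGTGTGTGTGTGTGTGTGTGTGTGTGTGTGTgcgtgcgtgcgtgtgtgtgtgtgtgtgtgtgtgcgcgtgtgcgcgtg
The runs in capitals were 60 and 40 bp long, with the units AC and GT. How well reads could be placed in such sequence, which occurs at many places in the genome, was not tested. Best summits within 100 bp of a tandem repeat of at least 40 bp were common in the lists as a whole: 43.8%, 40.5% and 43.9% of all genes with a summit in both wild type lists and premalignant replicate 1, and 16.3%, 18.7% and 18.9% in premalignant replicate 2 and malignant replicates 1 and 2. Among the 10 genes they were 2 of 6, 3 of 9, 2 of 5, 2 of 7, 2 of 10 and 2 of 7 in the same order, counts too small to set apart from those shares.

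Mxd1, the MAX dimerization protein that rises as cells differentiate, showed different values at its start and in its intron. At the start it had 20.8 and 71.2 in wild type replicates 1 and 2, no peak and 51.7 in premalignant replicates 1 and 2, and 40.5 and 71.8 in malignant replicates 1 and 2, and the stages overlapped. The AC repeat shown above had summits within 15 bp of each other in 5 lists (chr6:86602759-86602773), at 91.2 and 89.2 in wild type replicates 1 and 2, 34.5 in premalignant replicate 1, and 56.3 and 40.5 in malignant replicates 1 and 2. Taking the start or the body, premalignant cells (43.1 ± 12.2) were 47.1 points below wild type (90.2 ± 1.46), and malignant cells (64.0 ± 11.0) were 20.9 points above premalignant and 26.2 below wild type. None of the 3 stages overlapped another, with an exact permutation p of 0.333 each time, the smallest possible. The best peak was that of the repeat in both wild type lists and in replicate 1 of both transgenic stages, and a peak at the start in replicate 2 of both.

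Mxd3 had its summit just before the first start in 5 lists. It stood at 75.4 and 70.5 in wild type replicates 1 and 2, at 52.7 in premalignant replicate 2, and at 91.6 and 58.4 in malignant replicates 1 and 2, with no peak in premalignant replicate 1. Premalignant cells (26.3 ± 37.2) lay 46.6 points below wild type (72.9 ± 3.45) and 48.7 below malignant cells (75.0 ± 23.4), both without overlap (exact permutation p = 0.333). Wild type and malignant cells overlapped.

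Mxd4, a family member of resting and differentiated cells, had no peak in wild type replicate 1 and stood at 41.0 in wild type replicate 2. In premalignant replicates 1 and 2 it stood at 22.0 and 85.3, and in malignant replicates 1 and 2 at 76.5 and 75.8. Malignant cells (76.1 ± 0.439) were 55.7 points above wild type (20.5 ± 29.0) without overlap (exact permutation p = 0.333), and premalignant cells overlapped both. Mga, the largest protein of the group, had a summit at a start only in premalignant replicate 2 (30.4) and malignant replicate 1 (28.4). Its intron had higher ones in 5 lists, at 68.4 and 82.1 in wild type replicates 1 and 2, 73.2 in premalignant replicate 2, and 57.4 and 84.9 in malignant replicates 1 and 2. In all of these but wild type replicate 1, a tandem repeat of 54 to 64 bp (TCTCTT or TTTC) lay within 100 bp of the summit. How well reads could be placed there was not tested.

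Over the 10 genes, counts of stages that did not overlap were read against the same counts over all protein-coding genes. The 3 comparisons share libraries. At a start or in the body, Mxd1 and Mxd3 were lower in premalignant than in wild type cells and higher in malignant than in premalignant cells, as were 17.4% and 18% of all genes. Malignant values were above wild type for Mxd4 and Mnt (22.8% of all genes) and below for Mxd1 (8.93%). None was higher in premalignant than in wild type cells (3.61%) or lower in malignant than in premalignant cells (1.76%). At starts alone, Mxd4, Mxi1 and Mnt were higher in malignant than in wild type cells (13.3% of all genes), and Mxd3 was lower in premalignant than in wild type cells (12.8%) and higher in malignant than in premalignant cells (12.1%). The opposite directions held 0 genes at starts, beside 2.15% (premalignant above wild type), 0.934% (malignant below premalignant) and 5.71% (malignant below wild type) of all genes. Counts of 1 to 3 genes of 10 lie near these shares. With lists shortened to equal length, malignant and wild type values at starts overlapped for each of Mxd4, Mxi1 and Mnt. When every list was shortened to its 78113 best peaks, malignant values were above wild type for 0 genes (5.65% of all genes) and below for 3 (18.9%). Premalignant values were then above wild type for 1 gene (4.04%) and below for 3 (14.3%), and malignant values above premalignant for 0 (4.14%) and below for 2 (3.43%).

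Agreement of replicates was also measured with the irreproducible discovery rate (IDR), which asks whether peaks rank alike in both libraries of a stage. At an IDR under 0.05, Myc, Mxd1 and Mxi1 had a reproducible peak in wild type cells, where 20.7% of all genes had one. Those of Mxd1 and Mxi1 were in the introns, with an IDR of 0.00537 on the repeat of Mxd1, where the paired summits lay 7 bp apart, and of 0.00762 at the Mxi1 site, where they lay 168 bp apart. For Myc the paired summits lay 642 bp apart (IDR 0.0206). Myc had no reproducible peak in wild type cells with an IDR under 0.01, with short lists or with summits within 200 bp. No gene had one in premalignant cells (1.5% of all genes), and in malignant cells Mxi1 alone did (20.7%), at its internal start, with summits 60 bp apart (IDR 0.0241). The malignant pairs of Mnt (0.0584), Mxd4 (0.0645) and Mga (0.0686) and the wild type pair of Mga (0.0520) lay just outside. The mixture fit had more than one optimum in the premalignant and malignant stages, and the better of 2 starts was kept, so values near the threshold there depend on that choice.

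Sequence around the best start summits was also compared with that of all genes. CACGTG lay within 100 bp of the summit for 1 of 5 genes in wild type replicate 1, 2 of 8 in wild type replicate 2, 0 of 4 and 1 of 6 in premalignant replicates 1 and 2, and 1 of 10 and 1 of 6 in malignant replicates 1 and 2. In the same lists 3.21% to 4.52% of all genes with a summit at a start had it. The genes concerned were Mnt, Mxd3 (in wild type replicate 2 and malignant replicate 2) and Mlx (in malignant replicate 1). Median GC content of the 201 bp around these summits was 68.4% to 77.1%, beside 68.7% to 73.6% over all genes.

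Sites were formed by joining summits of any list within 200 bp of the next. The 10 genes held 73 sites, of which 43 were in 1 list and 12 (16.4%) in at least 4, beside 11.1% of the 256096 sites in all protein-coding genes. Mxi1 had 5 of those 12, Myc and Mxd1 2 each, and Mxd3, Mxd4 and Mnt 1 each. Mga, the longest of the genes at 72354 bp, had 16 sites but none in more than 3 lists. In protein-coding genes with values nearest to those of Myc over the 6 libraries, the distance was 15.3 points for Pcgf2, a Polycomb RING finger gene, 18.3 for Pqlc3 and 21.0 for Stc2, a secreted glycoprotein gene.

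The wider network was described by 5 gene lists, with UBTF at starts as the measure. Of all protein-coding genes, 22.3% to 47.5% had a start summit per library and 19.9% in at least 5 lists. Of 13 MYC coactivators, 6 to 13 had a start summit per library and 7 had one in at least 5 lists, led by the acetyltransferase gene Ep300 (mean percentile 85.6 ± 13.2, SD, n = 6), the elongation kinase gene Cdk9 (78.4 ± 21.3) and the chromatin remodeller gene Ep400 (73.9 ± 13.2). Of 9 corepressors of MXD and MNT, 4 to 9 had one per library and 5 in at least 5 lists, among them the nuclear receptor corepressor gene Ncor1 (80.9 ± 10.6) and Sap30 (60.5 ± 19.4), which encodes a subunit of the SIN3 complex. These 5 genes were in all 6 lists. The median over the genes of a list was 54.8 for coactivators and 41.4 for corepressors, beside 46.4 for the 10 genes and 11.7 for all protein-coding genes.

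Genes that act on MYC protein, relatives and targets had lower medians. Of 10 genes of MYC turnover and partners, 3 had a start summit in at least 5 lists, Usp28, a deubiquitinase gene (71.9 ± 12.7), Fbxw7, the substrate receptor of a ubiquitin ligase for MYC (53.5 ± 29.6), and the kinase gene Gsk3b (52.2 ± 23.3). Of 4 other network genes 2 did, Mlxip (67.0 ± 23.3), which encodes a partner of MLX, and Mycl1 (40.2 ± 33.4), and Mlxipl had 6.58 ± 10.2. Of 18 MYC target genes 5 did, beside the 19.9% of all genes, among them Odc1, the first enzyme of polyamine synthesis (71.1 ± 9.66), Rcc1 (60.2 ± 31.3) and the transferrin receptor gene Tfrc (51.3 ± 31.1). List medians were 23.9, 23.4 and 18.6. Start values in malignant cells were above wild type without overlap for 5 of 13 coactivators, 1 of 9 corepressors, 2 of 10 turnover genes, 2 of 4 other network genes and 3 of 18 targets, and below for 3 targets and none of the others (13.3% and 5.71% of all genes).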

How the data were processed

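UBTF ChIP-seq peak lists of 6 libraries were used. According to the methods of the study, the authors aligned reads with Bowtie2 to mm9 plus 1 rDNA repeat, discarded duplicates by Picard, and used SPP on each library for peak calls. The submitters' processing notes name CASAVA 1.8.2, Bowtie and Picard 1.110. The deposited score of each peak has units of the caller and served only for ranks. The deposited FDR (a q-value) was at most 0.0496 in premalignant replicate 2 and at most 0.00361 in the others.

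Summits and regions are those of the files, counted from 1. NCBIM37 sequence and GENCODE M1 gave genes, starts and sequence. Single values of stages were compared with two-sided exact permutation tests, adjusted by Benjamini-Hochberg over 3 comparisons. IDR was fitted as a 2-component Gaussian copula mixture on ranks of overlapping peaks. Replicates are numbered separately per stage. Deviations of same-numbered libraries over all genes correlated at 0.157, 0.377 and 0.0740 between stages, so numbers were not taken to pair libraries. The study describes the 2 libraries of a stage as biological replicates. Lists were used whole, and alternatives changed the window, the list length, the FDR or the libraries. Named were the 10 genes, Pvt1, the 3 highest genes of each network list and the 3 genes nearest to Myc. Of these, 1 gene is not reported here. The genes, lists and tests were chosen with earlier results of these data known. Python 3.11.15, numpy 2.4.6, scipy 1.17.1, pandas 2.3.3, pysam 0.24.0 and matplotlib 3.10.9 were used, and the statistics were tested on simulated data.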

Additional observations from a re-analysis of the deposited data

How the results depend on the processing

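Of 162 recomputed values, 18 turned their direction and 20 moved (counts by over 1.5 times, medians by over 1 SD). The other 124 stayed within these limits or, for tested differences, kept their sign but not always their size. No test reached its threshold in any setting, since none could with 2 libraries a stage. With each list shortened to its 78113 best peaks, genes with a start summit numbered 5 in wild type replicate 2, 2 in premalignant replicate 2, and 5 and 1 in malignant replicates 1 and 2. The share of all genes was not compared at that length, so these counts cannot be set against it. The difference of medians was then -1.52 for malignant minus premalignant and -38.0 for malignant minus wild type, and the latter was -2.90 with an FDR of at most 0.001. Genes without overlap in shortened lists numbered 1 (premalignant above wild type, 4.04% of all genes), and 0 and 2 (malignant above and below premalignant, 4.14% and 3.43%). They numbered 0 and 3 for malignant above and below wild type (5.65% and 18.9%). In whole lists at starts alone they numbered 1 (premalignant below wild type, 12.8%), 1 (malignant above premalignant, 12.1%) and 0 (malignant below wild type, 5.71%). Genes with a reproducible peak numbered 1 in wild type at starts alone (Myc, beside 5.46% of all genes) or with short lists (Mxd1, beside 12.7%). They numbered 0 in malignant cells with an IDR under 0.01, short lists or summits within 200 bp (8.35%, 2.62% and 4.06% of all genes).

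For Myc, premalignant minus wild type was 25.7 at the 5′ end alone, and malignant minus wild type 29.5 there and 24.4 with a window of 500 bp. The density around Myc for premalignant minus wild type was -0.0465 without Myc itself. Malignant minus premalignant was 0.268 without Myc and 0.363 with merged regions, and malignant minus wild type -0.0768 with 200 kb on each side and -0.166 with short lists. Leaving out 1 library at a time gave ranges for premalignant minus wild type, malignant minus premalignant and malignant minus wild type, in that order, of -85.7 to 9.13, -12.3 to 82.5 and -20.6 to 14.2 for Myc, of -0.219 to 0.410, -0.368 to 0.262 and -0.0933 to 0.178 for the density, and of -58.8 to -17.6, 18.1 to 59.3 and -1.35 to 2.25 for the medians. Taking the replicate number as a block left the differences as they were (for Myc -38.3, 35.1 and -3.19, exact p = 1, 0.5 and 1), and the smallest p it allows is 0.5, so it changed no call. The causes of these changes were not tested. The depth behind the lists is unknown.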
